A study of Mus musculus with 9 samples.

Results

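Collagens are the triple-helical proteins of the extracellular matrix. The genes described here are the protein-coding mouse genes whose symbol has the form Col, number, a, number, which takes 44 of the 55450 genes of the count tables (21951 of them protein-coding). They fall into 8 fibrillar genes, 10 genes of basement membranes and their anchors, 7 cartilage genes and 19 others. The libraries came from single animals: 7 Rathke's pouches at embryonic day 13.5, from embryos with a Sox2Egfp/+ allele, and the pituitary of 2 adult mice at postnatal week 8, after removal of the posterior lobe. The strain of origin was 129Sv/c57BL6J, and both sexes were used, although the sex of each library is not given in the sources used here. The embryo libraries held 16738863 to 28537311 read pairs counted on genes, and the adult libraries held 36421545 and 31191117.

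Each collagen is built from chains wound into a triple helix, and the chains of a type can come from a single gene or from several. Fibrillar collagens make the cables of connective tissue, type IV collagens make the sheet under epithelia and around capillaries, and type II, IX and XI collagens make the fibrils of cartilage. In the developing pituitary, the epithelium of the pouch lies on a basement membrane and is surrounded by mesenchyme from which capillaries grow into the gland.

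The markers of the tissue were checked first, as TMM-normalised counts in CPM, so that libraries of different depth can be compared. A gene was called when its edgeR adjusted p was below 0.05 and its fold change above 4. Over all genes tested, 11.3% were called higher in the embryo and 14.6% in the adult, and these shares apply to each marker list. Of the 9 markers of pituitary epithelium, 3 were called higher in the embryo and none was at 0 in any library. Hesx1, a transcription factor of the pouch, had 11.0, 22.4 and 40.4 CPM as the lowest, median and highest embryo value, and 0.339 and 0.562 CPM in the adults. Of the 7 hormone genes, 6 were called higher in the adult. The growth hormone gene Gh had at most 1.90 CPM in any embryo and 53470 and 63848 CPM in the adults. Tshb was not called, at a log2 fold change of -0.64. It overlapped between stages, with 76.4 to 432 CPM in embryos and 229 and 440 in adults. The 7 genes summed to 870 to 1920 CPM in embryos, with Cga first by embryo median. Markers of tissue next to the pouch were also detected in the embryo libraries, and the source of this RNA was not tested. Of the 4 genes of hypothalamus and posterior lobe, 3 were called higher in the embryo, and Rax, which marks the hypothalamic floor, had 29.2 to 92.8 CPM in embryos against 1.48 and 2.11 in adults.

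Of the 44 collagen genes, 43 passed the filter of a mean count of at least 5 and were tested. The remaining gene, Col10a1 of hypertrophic cartilage, had 2 counts over all embryos and 3 over both adults. By the threshold given above 13 collagen genes were called higher in the embryo, or 30.2% of those tested, against 11.3% of all 19371 genes tested. In the adult 7 were called higher, or 16.3%, against 14.6% of all genes. Thus the share called higher in the embryo was above the background, and the share called higher in the adult was near it. The median log2 fold change of embryo over adult was 0.64 for the collagen genes and -0.04 for all genes. A stricter edgeR test, of the fold change against 4, called 4 collagen genes in each stage, against 3.16% of all genes in the embryo and 5.84% in the adult. With at least 10 counts required in every sample, 29 collagen genes were tested in edgeR and 0 were called higher in the adult, against 10.1% of all genes, since 0 of the 7 genes called there had that many counts in every sample. The filter lets in a gene that is high in a single stage, so these counts and medians describe the members tested and support no statement on the family. In all 20 called members the 7 embryos and the 2 adults did not overlap. A call already requires a large difference between stages, so this separation gives no further support. Over the 43 members tested, every embryo was above both adults for 15 and both adults were above every embryo for 9, where 26.2% and 32.9% of all genes showed such a separation.

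**Figure D1:**
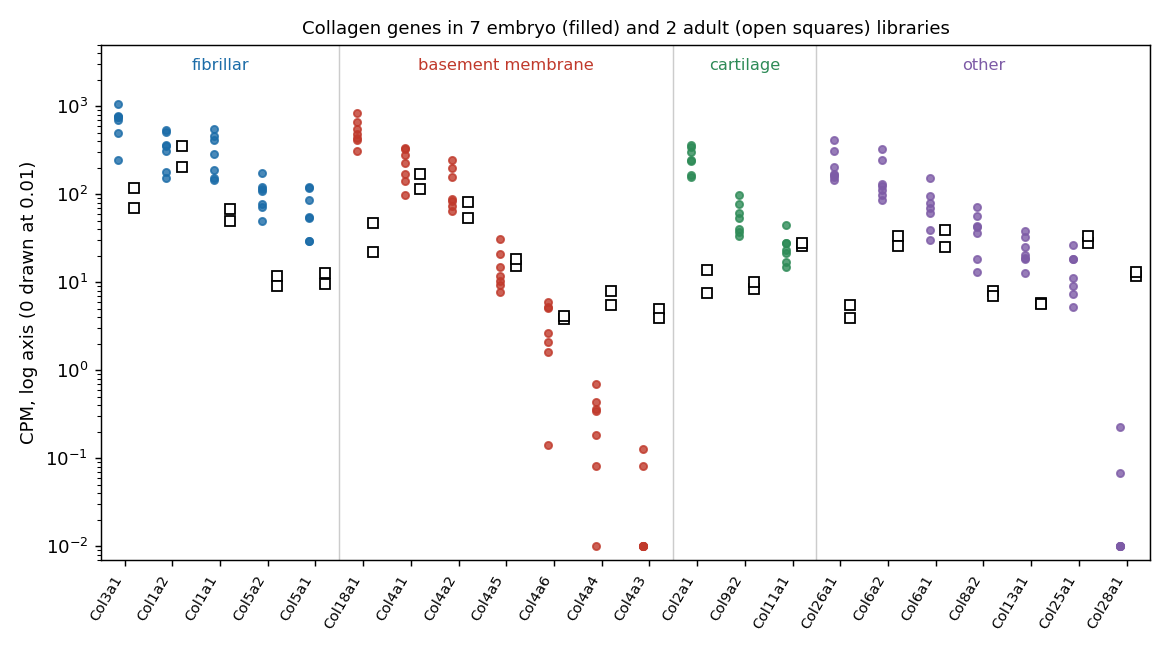
CPM on a log axis of the collagen genes given by sample, in 7 embryo libraries (filled circles) and 2 adult libraries (open squares), with values of 0 drawn at 0.01. Col26a1, Col18a1 and Col2a1 lie far above the adults in every embryo, Col4a1, Col4a2 and Col1a2 overlap between stages, and Col4a3, Col4a4 and Col28a1 lie above the embryos in both adults.

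Collagen transcripts are long, and in these libraries fold changes moved with length. The median of the longest transcript was 6048 bases for the collagen genes tested and 3359 for protein-coding genes tested, and the collagen genes had a median of 48 exons against 8. Over all genes the median log2 fold change went from 1.58 in the shortest of 10 bins of genes by length to -1.39 in the longest, and 35 of the 43 collagen genes lay in the 2 longest bins. With every library adjusted by a spline for the length and GC content of transcripts, 15 collagen genes were called higher in the embryo, against 7.02% of all genes, and 4 higher in the adult, against 14%. The median of the collagen genes was then 1.22 and that of all genes -0.17. The calls made with and without the correction shared 12 genes of the embryo and 4 of the adult. Whether the relation with length comes from the RNA or from the libraries was not tested.

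**Figure D2:**
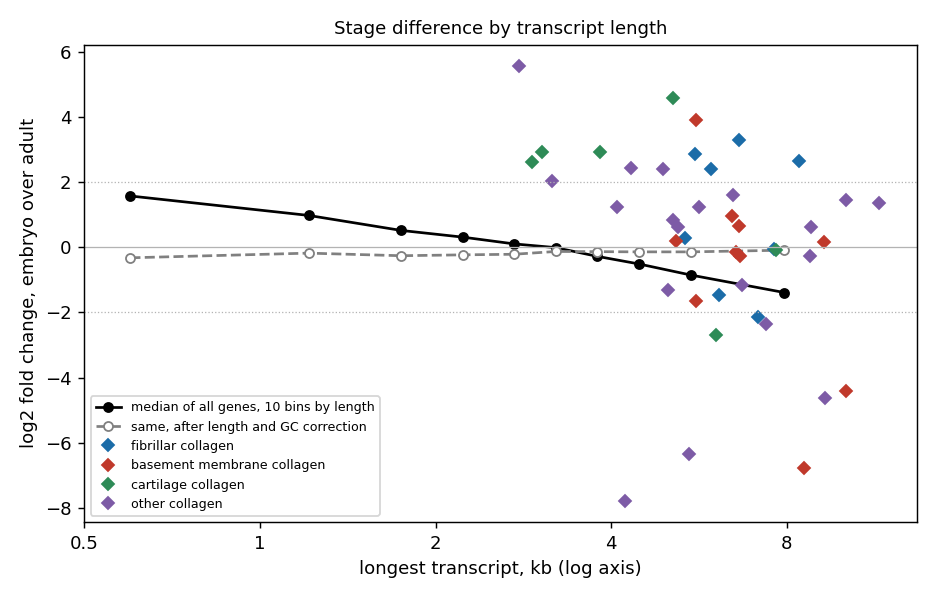
Log2 fold change of embryo over adult against the longest transcript in kb on a log axis, for the 43 collagen genes tested (diamonds, by class) and for the median of all genes in 10 bins by length (filled circles, and open circles after length and GC correction). The median of all genes goes from 1.58 to -1.39 with length, and most collagen genes lie above that line.

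Fibrillar collagens had the highest summed CPM per kb of the 4 classes in every library. Their summed level was 624, 1622 and 2350 CPM as the lowest, median and highest embryo value and 583 and 363 CPM in the adults. By this measure every embryo was above both adults. As a share of read pairs counted on genes, without TMM, embryo 3 had 0.0619% and adult 1 had 0.0660%, so the stages overlapped. Per kb of transcript fibrillar collagens made up 28.3% to 47.6% of all collagen RNA in embryos and 49.1% and 42.8% in adults. Of the 8 genes, 4 were called higher in the embryo, against 11.3% of all genes, and 1, Col24a1, in the adult, against 14.6%.

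Col3a1, the fibrillar collagen of elastic and vascular tissue, had the highest mean CPM per kb of all collagen genes in the embryo. It had 243, 760 and 1067 CPM as the lowest, median and highest embryo value and 118 and 69.6 CPM in the adults. Embryo 3 was lowest and embryo 7 highest, and the stages did not overlap. Its log2 fold change was 2.87 ± 0.51 (SE, n = 7 and 2, edgeR adjusted p = 0.000418). Col5a1 and Col5a2, whose products start and limit the growth of fibrils, were lower in level and moved the same way. Col5a2 had 50.2, 109 and 174 CPM in the embryos and 11.7 and 9.11 CPM in the adults, a log2 fold change of 3.30 ± 0.47 (SE, edgeR adjusted p = 7.75e-05). Col5a1 had 29.4, 54.3 and 122 CPM in the embryos and 12.7 and 9.64 CPM in the adults, a log2 fold change of 2.66 ± 0.59 (SE, edgeR adjusted p = 0.00185). In both genes the lowest embryo was above the higher adult. With the length and GC correction the log2 fold changes were 4.07 for Col5a2 and 3.65 for Col5a1.

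Of the 2 genes of type I collagen, the main protein of skin, tendon and bone, 1 was called. Col1a1, which encodes the chain present in excess, had 145, 287 and 545 CPM as the lowest, median and highest embryo value and 67.2 and 49.9 CPM in the adults. Its log2 fold change was 2.42 ± 0.55 (SE, edgeR adjusted p = 0.00228), with no overlap of the stages. Col1a2, which encodes the partner chain, had 151, 352 and 532 CPM in the embryos and 352 and 205 CPM in the adults. Here the stages overlapped, and the log2 fold change of 0.30 ± 0.44 (SE, edgeR adjusted p = 0.584) did not pass. The ratio of Col1a1 to Col1a2, both per kb, was 0.446, 0.868 and 1.03 as the lowest, median and highest embryo value and 0.172 and 0.220 in the adults. The lowest embryo ratio, in embryo 6, was therefore above the higher adult ratio. The difference in ratio was not tested. With the length and GC correction the log2 fold changes were 2.95 for Col1a1 and 0.67 for Col1a2.

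**Figure D3:**
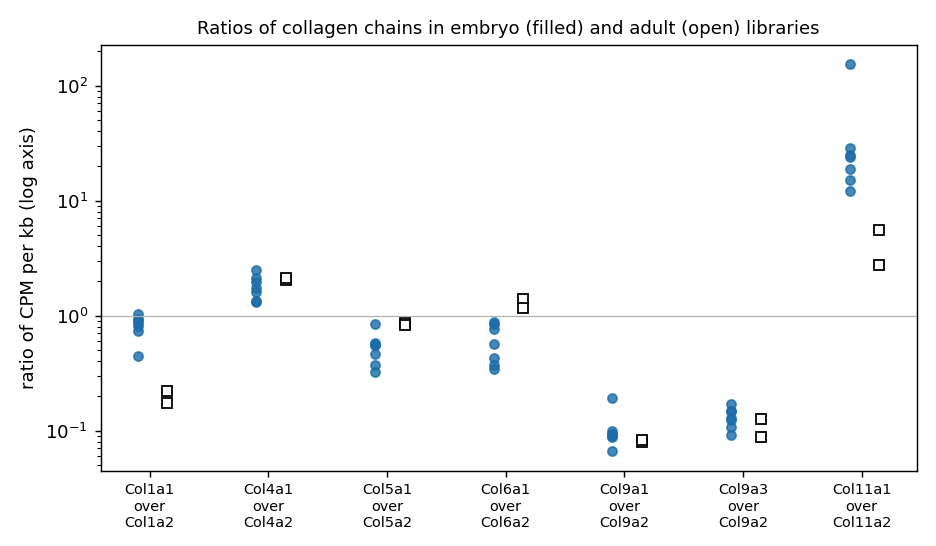
Ratios of CPM per kb on a log axis between genes for chains of the same collagen type, in 7 embryos (filled circles) and 2 adults (open squares). The ratios of Col1a1 to Col1a2, Col6a1 to Col6a2 and Col11a1 to Col11a2 do not overlap between stages, and those of Col4a1 to Col4a2, Col5a1 to Col5a2, Col9a1 to Col9a2 and Col9a3 to Col9a2 do.

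Of the other fibrillar genes, Col24a1 had 0.203 to 2.63 CPM in embryos and 4.80 and 5.34 in adults, a log2 fold change of -2.14 ± 0.68 (SE, edgeR adjusted p = 0.0175). After the length and GC correction its log2 fold change was -1.35 and it was no longer called. Without embryo 2, 3 or 6, adult 1 or adult 2, in this order, it was likewise not called, with values of -1.95, -1.91, -1.98, -2.23 and -2.07. Col27a1 and Col5a3 were not called and had 3.57 to 30.9 and 0.396 to 3.66 CPM in embryos.

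Basement membrane genes had a summed level of 541, 828 and 1484 CPM as the lowest, median and highest embryo value and 359 and 247 CPM in the adults. Col18a1 alone made up 48.0% to 66.9% of this sum in embryos, and in adults Col4a1 was first, with 47.1% and 46.3%. The sum therefore rests largely on 1 gene. As a share of read pairs counted on genes, without TMM, embryo 4 had 0.04070% and adult 1 had 0.04065%. Of the 10 genes, 1 was called higher in the embryo, 2 in the adult and 7 in neither, where all genes had 11.3% and 14.6% called in embryo and adult, so both counts were near the background. Their median log2 fold change was 0.00 and, with the length and GC correction, 0.49.

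Col18a1, a heparan sulphate proteoglycan whose end fragment is endostatin, was by mean CPM per kb the most abundant of them in the embryo. It had 312, 486 and 832 CPM as the lowest, median and highest embryo value and 47.3 and 22.2 CPM in the adults, with no overlap. With embryo 4 lowest and embryo 2 highest, the log2 fold change was 3.92 ± 0.49 (SE, edgeR adjusted p = 2.36e-05), and ran from 3.46 to 4.55 with single libraries left out. Col15a1, its closest relative in structure, had 13.2, 15.1 and 54.4 CPM in the embryos and 25.8 and 19.4 CPM in the adults and overlapped between stages. The log2 fold change of Col15a1 was 0.19 ± 0.51 (SE, edgeR adjusted p = 0.771). The ratio of Col15a1 to Col18a1, both per kb, was at most 0.0707 in any embryo and 0.590 and 0.946 in the adults.

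The 6 genes of type IV collagen lie in pairs with their 5' ends facing each other. Col4a1 and Col4a2 overlap by 22 bases on chromosome 8, Col4a3 and Col4a4 are 71 bases apart on chromosome 1, and Col4a5 and Col4a6 are 1308 bases apart on chromosome X. No other collagen genes in the genome annotation were placed head to head within 300 kb. The promoters are shown because these genes lie head to head. They run from 250 bases before to 50 bases after the start of the gene and come from RefSeq, build GRCm38.p6, which held 38 promoters for 35 of the 44 genes; Col4a3 had no entry. Capitals mark the CCAAT box (CCAAT) and the GC box (GGGCGG) on either strand. The TATA box (TATAAA) was also searched on both strands and had no match in the promoters shown. The regions are chr8:11312777-11313076 on the minus strand for Col4a1, chr8:11312555-11312854 on the plus strand for Col4a2, chr1:82586800-82587099 on the minus strand for Col4a4, chrX:141475169-141475468 on the plus strand for Col4a5 and chrX:141474027-141474326 on the minus strand for Col4a6.
Col4a1: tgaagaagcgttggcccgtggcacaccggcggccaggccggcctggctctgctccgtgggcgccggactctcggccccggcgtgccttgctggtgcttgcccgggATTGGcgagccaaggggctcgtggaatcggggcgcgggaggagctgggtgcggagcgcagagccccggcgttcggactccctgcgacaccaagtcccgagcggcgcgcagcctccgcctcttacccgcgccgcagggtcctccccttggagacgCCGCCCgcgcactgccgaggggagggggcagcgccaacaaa
Col4a2: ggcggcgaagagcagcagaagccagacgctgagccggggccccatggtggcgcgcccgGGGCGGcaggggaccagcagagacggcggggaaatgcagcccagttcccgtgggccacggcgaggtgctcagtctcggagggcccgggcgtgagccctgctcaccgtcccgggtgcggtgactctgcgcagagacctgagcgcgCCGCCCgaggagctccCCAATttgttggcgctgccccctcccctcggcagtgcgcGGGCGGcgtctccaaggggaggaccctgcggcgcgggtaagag
Col4a4: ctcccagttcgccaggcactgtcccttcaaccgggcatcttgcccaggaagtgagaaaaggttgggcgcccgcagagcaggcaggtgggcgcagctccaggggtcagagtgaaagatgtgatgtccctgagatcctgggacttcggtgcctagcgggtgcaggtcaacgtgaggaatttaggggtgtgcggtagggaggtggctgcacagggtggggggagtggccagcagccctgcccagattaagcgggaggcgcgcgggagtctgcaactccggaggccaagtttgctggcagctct
Col4a5: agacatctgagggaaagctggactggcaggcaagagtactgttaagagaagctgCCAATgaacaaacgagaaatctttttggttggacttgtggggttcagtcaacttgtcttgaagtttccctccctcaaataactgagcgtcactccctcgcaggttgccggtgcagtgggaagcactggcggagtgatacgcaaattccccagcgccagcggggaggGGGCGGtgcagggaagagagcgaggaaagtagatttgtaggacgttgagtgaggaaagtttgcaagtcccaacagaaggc
Col4a6: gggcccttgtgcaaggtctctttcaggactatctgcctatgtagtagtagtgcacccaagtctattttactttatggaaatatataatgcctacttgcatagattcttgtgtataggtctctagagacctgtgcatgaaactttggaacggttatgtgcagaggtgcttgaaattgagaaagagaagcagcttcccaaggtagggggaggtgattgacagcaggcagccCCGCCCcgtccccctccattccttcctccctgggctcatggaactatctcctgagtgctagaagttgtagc

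The windows of Col4a1 and Col4a2 share bases, so a match can stand in both, and the start of Col4a3 lies inside the window of Col4a4. Col4a2 held 1 CCAAT box and 3 GC boxes, and Col4a1 and Col4a5 held 1 of each. Col4a6 held 1 GC box, and Col4a4 held no match to these letters. Among all 32851 promoters of the table, 37.4% held a CCAAT box, 35.7% a GC box and 13.6% a TATA box. For the 38 promoters of collagen genes the shares were 34.2%, 60.5% and 13.2%. A match describes the letters and says nothing of use.

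Col4a1 and Col4a2, the chains of nearly all basement membranes, were the most abundant type IV genes in both stages per kb. Col4a1 had 99.1, 227 and 333 CPM as the lowest, median and highest embryo value and 169 and 114 CPM in the adults. Col4a2 had 64.4, 89.0 and 244 CPM in the embryos and 81.7 and 53.0 CPM in the adults. In both genes the stages overlapped and the test was not passed, with log2 fold changes of 0.67 ± 0.42 (SE, edgeR adjusted p = 0.201) and 0.95 ± 0.49 (SE, edgeR adjusted p = 0.117). Length and GC correction brought them to 1.34 and 1.68, with an edgeR adjusted p below 0.05 in both, short of the fold change threshold. The ratio of Col4a1 to Col4a2 per kb was 1.30 to 2.49 in embryos and 2.02 and 2.10 in adults.

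Col4a3 and Col4a4, whose chains occur with that of Col4a5 in a restricted set of membranes such as that of the kidney filter, were near 0 in embryos. Col4a3 had no count in 5 of 7 embryos, at most 0.128 CPM in any, and 4.92 and 3.91 CPM in the adults. Pooled by stage, 342 adult counts against 6 embryo counts gave a ratio of 119, with a 95% interval of 54.3 to 328 for counting error only. Col4a4 had 0, 0.347 and 0.706 CPM as the lowest, median and highest embryo value and 7.85 and 5.51 CPM in the adults. The log2 fold changes were -6.79 ± 0.90 for Col4a3 (SE, edgeR adjusted p = 4.23e-05) and -4.40 ± 0.70 for Col4a4 (SE, edgeR adjusted p = 0.000182). Of the 6 embryo counts of Col4a3, 4 were in embryo 7, and with single libraries left out its value ran from -7.78 to -6.55. Over all alternative fits it ran from -9.81 to -5.10. With the length and GC correction Col4a3 was -5.82 and Col4a4 -3.22, both still called. Both adults were above every embryo in each gene.

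The third pair did not differ beyond its spread. Col4a5 had 7.76, 11.8 and 31.2 CPM in the embryos and 15.3 and 18.6 CPM in the adults, a log2 fold change of -0.15 ± 0.45 (SE, edgeR adjusted p = 0.795). Col4a6 had 0.141, 2.62 and 5.98 CPM in the embryos and 3.81 and 4.13 CPM in the adults, a log2 fold change of -0.27 ± 0.77 (SE, edgeR adjusted p = 0.788). Their stages overlapped, and both signs turned with the length and GC correction, to 0.50 and 0.35. The anchoring genes Col7a1 and Col17a1, of the junction between epithelium and stroma, had at most 1.98 and 2.67 CPM in any embryo and were not called. The log2 fold change of Col17a1 was -1.63, and ran from -2.12 to -0.97 with single libraries left out.

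Cartilage genes differed between stages by the largest median of the classes, 2.77 on the log2 scale over 6 genes tested. Their summed level was 234, 347 and 487 CPM as the lowest, median and highest embryo value and 56.9 and 52.3 CPM in the adults. Of the 6, 4 were called higher in the embryo (all genes 11.3%) and 1, Col11a2, in the adult (all genes 14.6%).

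Col2a1, the main collagen of cartilage fibrils, had 155, 247 and 362 CPM as the lowest, median and highest embryo value and 13.9 and 7.53 CPM in the adults. Embryo over adult, the log2 fold change was 4.59 ± 0.48 (SE, edgeR adjusted p = 6.13e-06), with no overlap. Col9a2, a chain of the collagen on the surface of those fibrils, had 33.7, 53.9 and 98.4 CPM in the embryos and 8.41 and 10.2 CPM in the adults. Its log2 fold change was 2.62 ± 0.45 (SE, edgeR adjusted p = 0.000318), again with no overlap. The partner chains Col9a1 and Col9a3 were also called higher in the embryo, at 2.92 and 2.94 on the log2 scale, with at most 13.6 and 15.3 CPM in any embryo.

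Col11a1, the chain that sets the width of cartilage fibrils, had 14.7, 23.2 and 44.9 CPM in the embryos and 25.5 and 28.1 CPM in the adults. The stages overlapped and the log2 fold change was -0.09 ± 0.36 (SE, edgeR adjusted p = 0.852). With the length and GC correction it was 0.99. Its partner Col11a2 had 0.141 to 1.48 CPM in embryos and 7.37 and 3.99 CPM in adults, a log2 fold change of -2.69 ± 0.58 (SE, edgeR adjusted p = 0.00161). Col11a2 was not called with the correction, at -1.92, or without adult 1, at -2.21. The ratio of Col11a1 to Col11a2 per kb was 12.0, 24.0 and 154 as the lowest, median and highest embryo value and 2.73 and 5.56 in the adults. The highest was embryo 4, where Col11a2 had 0.141 CPM, and the other embryos had at most 28.5.

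Markers of cartilage cells were low beside Col2a1. Of the 8 markers, 6 were tested, 2 were called higher in the embryo, against 11.3% of all genes, and 2 in the adult, against 14.6%. Their summed level was 25.8, 44.8 and 74.2 CPM as the lowest, median and highest embryo value and 43.4 and 23.5 CPM in the adults, and Sox9, which pituitary stem cells also express, made up 49.7% to 86.7% of the sum. The matrix genes Acan, Matn1, Matn3 and Comp were low in embryos, with at most 3.88, 1.17, 0.236 and 0.652 CPM in any of them, and Matn1 and Matn3 were at 0 in both adults. Even so, Acan was called higher in the embryo at a log2 fold change of 3.05 (edgeR adjusted p = 0.0455). Its stages overlapped, with 0 CPM in embryo 1 and 0.218 and 0.197 in the adults. Cnmd, which is made by cartilage and other tissues without vessels, was called at 5.75, with 4.16 to 18.2 CPM in embryos and 0.267 and 0.0562 in adults. The genes called higher in the adult were Hapln1, at -3.03 with 17.7 and 4.41 CPM in the adults, and Ucma, at -5.06 with 3.54 and 1.91 CPM there. Hapln1 was not called with the length and GC correction, at -1.83. In bulk RNA, fewer cells of a type and less RNA per cell cannot be told apart.

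The 19 other genes comprise beaded filaments, networks, fibril-associated and membrane-bound collagens. Of these, 4 were called higher in the embryo, 3 in the adult and 12 in neither, beside 11.3% and 14.6% of all genes in embryo and adult. Their summed level was 421, 673 and 1297 CPM as the lowest, median and highest embryo value and 215 and 208 CPM in the adults.

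Col26a1, a secreted protein with short collagen stretches, had the largest log2 fold change of the family toward the embryo, 5.56 ± 0.56 (SE, edgeR adjusted p = 4.27e-06). With the length and GC correction it came second, at 5.10, after Col2a1 at 5.12. It had 145, 171 and 417 CPM as the lowest, median and highest embryo value and 5.53 and 3.94 CPM in the adults. Per kb it was the most abundant of the other genes in the embryo. Col8a2, of the network under the corneal endothelium and in vessels, had 13.1, 42.1 and 71.7 CPM in the embryos and 7.88 and 6.92 CPM in the adults, a log2 fold change of 2.44 ± 0.57 (SE, edgeR adjusted p = 0.00269). Neither gene overlapped between stages. Col13a1, a membrane-bound collagen of cell adhesion sites, had 12.9, 20.2 and 38.5 CPM in the embryos and 5.82 and 5.68 CPM in the adults. Its log2 fold change of 2.04 ± 0.43 (SE, edgeR adjusted p = 0.00130) was just past the threshold, and fell under it with the length and GC correction, at 1.72, and without embryo 2 or 5, at 1.89 and 1.95.

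Type VI collagen forms beaded filaments around cells from the products of Col6a1, Col6a2 and a chain of a larger gene. Col6a2 had 86.3, 124 and 324 CPM as the lowest, median and highest embryo value and 33.7 and 26.1 CPM in the adults, a log2 fold change of 2.41 ± 0.53 (SE, edgeR adjusted p = 0.00173) with no overlap. Col6a1 had 30.3, 70.1 and 154 CPM in the embryos and 38.9 and 25.1 CPM in the adults. Its stages overlapped, with a log2 fold change of 1.25 ± 0.51 (SE, edgeR adjusted p = 0.0526). The ratio of Col6a1 to Col6a2 per kb was 0.346 to 0.886 in embryos and 1.38 and 1.15 in adults. Col6a3 had a log2 fold change of 1.46, and was called with the length and GC correction, at 2.62, and without adult 2, at 2.31. Col12a1 and Col14a1, of the fibril-associated collagens, had 1.37 and 1.60 and were called with the correction, at 2.86 and 2.29.

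On the adult side, Col28a1, a short collagen of nerves and skin, had no count in 5 of 7 embryos, at most 0.225 CPM in any, and 11.8 and 13.0 CPM in the adults. Pooled by stage, 951 adult counts against 9 embryo counts gave a ratio of 221, with a 95% interval of 116 to 486 for counting error only. Its log2 fold change was -7.78 ± 0.80 (SE, edgeR adjusted p = 5.45e-06). Of its 9 embryo counts 7 were in embryo 7, and with single libraries left out it ran from -9.29 to -7.51. Col19a1, of muscle and nerve basement membranes, had 384 adult counts against 10 embryo counts, a ratio of 80.5 (43.3 to 169), and its log2 fold change of -6.35 ran from -7.25 to -6.10 with single libraries left out. Col6a5 had 82 against 6, a ratio of 28.6 (12.6 to 80.3), with all 6 embryo counts in embryo 6. Its log2 fold change was -4.61, and -7.87 without that embryo. With the length and GC correction Col6a5 was -3.37 (edgeR adjusted p = 0.0522) and was not called. Col25a1, a membrane-bound collagen of neurons, was among the 3 highest of its class per kb in the adult. It had 5.20, 11.1 and 26.7 CPM in the embryos and 27.8 and 33.5 CPM in the adults, with no overlap but a log2 fold change of -1.16 ± 0.46 (SE, edgeR adjusted p = 0.0469), short of the threshold. With the length and GC correction it was -0.09.

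The remaining other genes were not called. Col8a1, Col16a1 and Col23a1 had embryo medians of 8.86, 10.9 and 29.0 CPM, with log2 fold changes of 0.83, 0.64 and 1.25. With single libraries left out these ran from 0.08 to 1.14, 0.09 to 1.47 and 0.84 to 1.77. Col8a1 and Col16a1 overlapped between stages. In Col23a1 the lowest embryo, at 16.7 CPM, was above the adults, at 8.39 and 16.0 CPM. Its edgeR adjusted p was 0.0171, and only the fold change was short of the threshold. Col20a1, Col22a1, Col6a4 and Col6a6 had embryo medians of 0.733, 2.71, 0.0406 and 0.399 CPM. In Col6a4 both adults were above every embryo, the log2 fold change was -2.34, and without embryo 7 it was called, at -2.86.

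Embryos were compared over the 28 members with a mean of at least 5 CPM in embryos. The ratio of the highest to the lowest embryo had a median of 3.77 and ran from 2.31 to 23.2. Embryo 2 was the highest for 13 of the 28 and embryo 7 for 12, while embryo 3 was the lowest for 18 and embryo 4 for 5. The summed level of all collagens was 3581, 5344, 1951, 2219, 3938, 3007 and 4714 CPM in embryos 1 to 7 and 1213 and 871 CPM in the adults. The highest of the embryos thus had 2.74 times the level of the lowest, and the lowest was above both adults. This order depended on TMM scaling. As a share of read pairs counted on genes, embryo 4 was lowest at 0.167% and embryo 7 highest at 0.570%. The adults had 0.137% and 0.0993%.

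**Figure D4:**
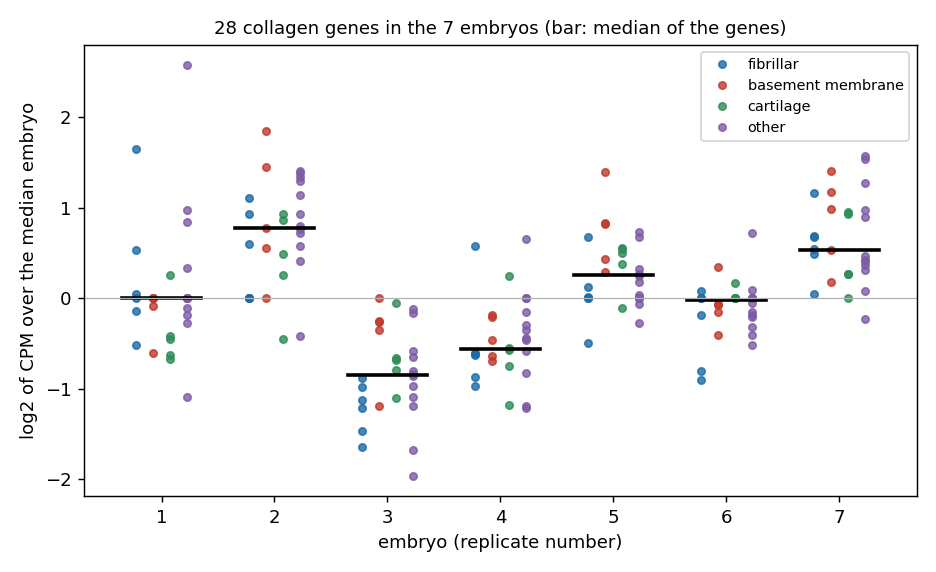
Log2 of the CPM of 28 collagen genes over their median in the 7 embryos, by embryo and class, with a bar at the median of the genes. The bars lie at 0.77 in embryo 2 and 0.53 in embryo 7, and at -0.85 in embryo 3 and -0.56 in embryo 4.

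Markers of other cells moved between embryos too. The 12 mesenchyme markers summed to 647, 575, 264, 381, 514, 619 and 640 CPM in embryos 1 to 7 and 318 and 258 CPM in the adults. All 12 were detected in every library, Lum had the highest median in embryos and Dcn the highest mean in adults, and 7 were called higher in the embryo and 1, Prrx1, in the adult. The shares of all genes, 11.3% and 14.6%, stand beside this count and those of the lists that follow. The 9 endothelial markers summed to 456, 803, 256, 358, 413, 370 and 399 CPM in the embryos and 159 and 99.0 CPM in the adults, with 3 called higher in the embryo and none at 0. The 9 markers of pituitary epithelium summed to 1704, 866, 2558, 2232, 1844, 1527 and 1380 CPM in the embryos and 1010 and 917 CPM in the adults, so that embryo 2 was below both adults. Embryo 3 thus had the lowest mesenchyme and endothelial sums and the highest epithelial sum, and embryo 2 had the highest endothelial sum and the lowest epithelial sum. The 8 mural cell markers, of which Acta2 had the highest embryo median and Rgs5 the highest adult mean, summed to 167 to 414 CPM in embryos, highest in embryo 2, and to 140 and 89.7 CPM in adults. Of these, 2 were called higher in the embryo and none was at 0 in both adults. Of the 4 bone markers, 3 were tested and 2 called higher in the embryo, with sums of 2.18 to 9.60 CPM against 1.60 and 0.872, and with Sp7 first by embryo median and Runx2 by adult mean. All 4 muscle markers were called higher in the embryo, with Myog first by embryo median and adult mean, sums of 2.34 to 8.42 CPM against 0.0242 and 0.0281, and Myod1 and Myh3 at 0 in both adults. Myog and Actc1 had 1 adult count each. After the length and GC correction Prrx1, Egfl7 of the endothelium and Krt18 of the epithelium were not called, at -1.53, 1.42 and 1.05, while Myh11 of mural cells was, at 2.24. The part of these cell types in the collagen levels, between embryos and between stages, was not tested. Embryos 1 and 4 had a lower share of read pairs on genes, 59.7% and 62.8%, where embryos 2, 3, 5, 6 and 7 had 73.9% to 80.0%. Their 5 red cell markers, of which Hbb-bs was the most abundant, summed to 68370 and 83308 CPM, against 1728 to 7493 CPM in the other embryos. The adults had 762 and 1975 CPM. Of these markers 4 were called higher in the embryo, and 0 with the length and GC correction. Without embryos 1 and 4, 13 collagen genes were called higher in the embryo, against 11.5% of all genes, and 7 in the adult, against 16.2%. With a block on the replicate numbers, which pair no animals, the counts were again 13 and 7, against 9.27% and 12.6% of all genes.

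Genes that make, bind and cut collagen were read from lists. Of the 33 genes that fold, modify, secrete and crosslink collagen, 8 were called higher in the embryo, against 11.3% of all genes, and 1 in the adult, against 14.6%. The median log2 fold change was 0.14. With a fold change threshold of 2 in place of 4, 16 of the 33 were called in either direction, against 46.3% of all genes. Serpinh1, the chaperone of procollagen, had 811, 1062 and 1455 CPM as the lowest, median and highest embryo value and 114 and 109 CPM in the adults, a log2 fold change of 3.30 ± 0.37 (SE, edgeR adjusted p = 9.55e-06). The lysyl oxidase Loxl3, which crosslinks fibrils, was called at 3.65, the procollagen proteinase Adamts14 at 2.92, the tolloid proteinase Tll2 at 2.55, and the folding isomerases Ppib and Fkbp10 at 2.51 and 2.49. Of these, Fkbp10 was not called with the length and GC correction, at 1.88. Mia3, which loads procollagen into transport carriers, went the other way, with 9.50 to 32.2 CPM in embryos, 123 and 121 in adults and a log2 fold change of -2.73. The prolyl hydroxylase genes P4ha1 and P4ha2 had -1.60 and -0.90, short of the threshold.

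Of the 10 collagen receptors, 2 were called higher in the embryo, the endocytic receptor Mrc2 at 2.39 and the integrin gene Itga11 at 2.42. The length and GC correction added Itga1, at 3.01, and moved the median from 0.07 to 1.44. The summed level went the other way, with 316 to 648 CPM in embryos and 750 and 703 in adults. Itgb1, the highest receptor in the adults, had 494 and 475 CPM there and 102 to 358 in embryos. Its log2 fold change was -1.43, short of the threshold. Of 11 cleaving enzymes and inhibitors tested, the gelatinase Mmp2 alone was called, at 3.20. Of 16 basement membrane partners, the laminin gene Lama3 alone was called, at -3.98. Here the correction added Lama4 at 2.23 and Hspg2 at 2.11, both higher in the embryo, and moved the median from -0.07 to 0.72. Of 13 fibril partners, 5 were called higher in the embryo and 3 in the adult. The shares of all genes for these 4 lists are again 11.3% in the embryo and 14.6% in the adult. Dcn, Lum and Postn are fibril partners and also mesenchyme markers, and the calls of Lum and Postn count in both lists. Among the fibril partners called were Tnxb, a tenascin of connective tissue, at -7.55, Fn1 at 3.75, Fmod at 3.61 and Postn at 3.60. With the length and GC correction these were -6.03, 4.71, 3.19 and 4.82, in the same order. Kera had 206 embryo counts against 1 adult count, a pooled ratio of 98.3 (17.4 to 3901), and Omd had 85 adult counts against 4 embryo counts, a ratio of 44.5 (16.8 to 167). Tnxb had at most 0.941 CPM in any embryo and 101 and 112 CPM in the adults.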

How the data were processed

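The authors trimmed read pairs with Trimmomatic 0.39, aligned them with STAR 2.7.5b to mm10 (GRCm38) and deposited raw counts of read pairs per gene from directional poly(A) libraries. The strand-specific count was used. Symbols, positions and lengths came from GENCODE M21, in which all 55450 identifiers were found. Read pairs outside genes stayed out of library sizes. Samples were grouped by their labels, and stage was the only term.

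Counts were scaled by TMM and fitted in edgeR 4.0.16 (R 4.3.3) by the quasi-likelihood test, on the 19371 genes whose counts averaged 5 or more, with Benjamini-Hochberg adjustment over all of them. The script was tested on simulated data. Alternatives were DESeq2 1.42.0, other scalings, filters and thresholds, the unstranded count, a replicate block, libraries left out and a length and GC spline (4 degrees of freedom, from genes averaging 50 counts or more). Tables were made in Python 3.11.15 (pandas 2.3.3, numpy 2.4.6, scipy 1.17.1) and figures in matplotlib 3.10.9. A floor of 3 counts was 0.0727 to 0.220 CPM. Intervals and floors cover counting error only.

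The members and lists were chosen with earlier results of these data known. Values in every sample are given for called members with a mean of at least 10 CPM in a stage, the 3 members of each class with the highest count per kb in each stage, and members of head-to-head pairs. Others are given by counts and ranges. From the other lists, called genes are named, at most 6 by absolute log2 fold change, and any needed to describe the list. Markers and further members given with values were named after these were seen.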

Additional observations from a re-analysis of the deposited data

Results flagged for a closer look

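In 5 of the 43 collagen genes tested, 1 embryo lay far from the other 6, by its gap to the nearest embryo over the range of all 7. For normally distributed values, chance does this in about 1 in 20 groups. Col8a1 was 52.8 CPM in embryo 1, with the next embryo at 14.0, and Col27a1 was 30.9 CPM in the same embryo, with the next at 14.7. Col11a1 was 44.9 CPM in embryo 7, with the next at 27.7. Col28a1 was 0.225 CPM in embryo 7 and Col6a5 was 0.297 CPM in embryo 6, values that rest on 7 and 6 counts. In these 2 genes 5 and 6 of the 7 embryos were at 0, so that rate does not hold for them.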

How the results depend on the processing

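Of the 43 collagen genes tested, 25 kept their call and sign in every alternative they entered other than those on the fold change threshold, and these include 16 of the 20 called. With at least 10 counts required in every sample, 0 genes were called higher in the adult and the median was 1.41, since 0 of the 7 genes called there passed that filter. In an edgeR test of the fold change against 4, 4 genes were called higher in each stage and 2 collagen-processing genes; with a threshold of 2, 16 of 33 collagen-processing genes were called, against 46.3% of all genes. With the length and GC correction, 4 genes were called higher in the adult and the median was 1.22. That correction moved calls to Col6a3 at 2.62, Col12a1 at 2.86 and Col14a1 at 2.29, and ended those of Col24a1 at -1.35, Col6a5 at -3.37, Col13a1 at 1.72 and Col11a2 at -1.92. It turned the signs of Col11a1 to 0.99, Col27a1 to 0.80, Col6a6 to 0.73, Col4a6 to 0.35 and Col4a5 to 0.50. Library size alone gave Col7a1 -0.12 and Col13a1 1.86, no longer called, and Col13a1 was 1.99 with 10 counts in every sample. Library size alone, the length and GC correction and the replicate block moved the median of all genes from -0.04 to -0.26, -0.17 and -0.20. The cause of these changes was not tested.

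Without embryos 1 and 4, Col6a6 was 0.14, Col7a1 -0.38, Col8a1 -0.15, Col4a6 0.12 and Col4a5 0.10, none called. With single libraries left out, the counts ran from 12 to 14 in the embryo (all genes 7.77% to 12.2%), from 5 to 8 in the adult (11.5% to 15.3%) and from 8 to 9 for collagen-processing genes, and the median from 0.48 to 0.84. The ranges of log2 fold change were 0.91 to 2.31 for Col6a3, -0.29 to 0.066 for Col11a1, -2.51 to -1.91 for Col24a1, -0.10 to 0.39 for Col15a1, -0.44 to 0.17 for Col27a1, -0.051 to 0.73 for Col1a2, -0.58 to 0.0058 for Col6a6, -2.86 to -1.85 for Col6a4, -0.20 to 0.56 for Col7a1, 1.89 to 2.20 for Col13a1, -3.08 to -2.21 for Col11a2 and -0.43 to 0.018 for Col4a5. With an adult left out, the lone adult is assumed to vary like the embryos.

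The replicate numbers shared by the stages name different animals and pair nothing; same-numbered libraries deviated with correlations of 0.03 and 0.00. With a replicate block on those numbers, 13 genes were called higher in the embryo, against 9.27% of all genes, and 7 in the adult, against 12.6%, and the median was 0.98. The replicate block gave Col27a1 0.55, Col6a5 -8.01, no longer called, and Col17a1 -3.23, called. The 2 adults limit the spread within that stage.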
